A study of Mus musculus with 6 samples.

Results

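The genes described here are 10 transcripts long used as marks of astrocytes, Gfap, Aldoc, Aqp4, Slc1a2, Slc1a3, Gja1, S100b, Apoe, Clu and Sparcl1, followed through libraries made from neurons. They were taken by gene name from a table of 55414 mouse genes, and each name occurred once. The table holds FPKM (fragments counted per kilobase of gene length and per 1e6 fragments) for 6 libraries of male mouse brain, all labelled as neurons. Of these, 3 carry the genotype label PV-positive (replicates 6, 7 and 8; PV is parvalbumin, a calcium-binding protein of many neurons) and 3 the label Drd2-positive (replicates 1, 2 and 3; Drd2 is the D2 dopamine receptor). Slices holding the medial mammillary nucleus, which lies in the hypothalamus, were treated with papain, and fluorescent cells were aspirated through glass electrodes. Values listed across PV follow replicates 6, 7 and 8, and values across Drd2 follow replicates 1, 2 and 3. The sources used here do not give the alleles that made the cells fluoresce, the strain, the age or the number of cells or mice in a library, and the p-values measure the spread between these libraries only.

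Astrocytes are glial cells that wrap synapses and blood vessels. They take up glutamate and potassium, pass small molecules to each other through gap junctions, hold water channels at their vascular endfeet and secrete lipoproteins and matrix proteins. The 10 genes are not equally restricted to them. Gfap, Aqp4, Slc1a2, Slc1a3 and Gja1 are mainly astrocytic in adult brain and are called the defining genes below. Apoe is also made by microglia, S100b by cells of the oligodendrocyte lineage, and Aldoc, Clu and Sparcl1 by some neurons; these 5 are called the shared genes.

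Library depth, recovered from the spacing of low FPKM values, was 23.8 to 33.7 in units of 1e6 fragments, so that 1 read in a gene of 1 kilobase was worth 0.0296 to 0.0420 FPKM. All 8 neuronal markers examined (Snap25, Syt1, Stmn2, Rbfox3, Tubb3, Elavl4, Uchl1 and Slc17a6) were at 1 FPKM or more in every library and summed to 1788 to 2085 FPKM. Libraries stood apart in other cell markers: 16 microglial genes summed to 4160 FPKM in Drd2 replicate 3 and to 24.5 FPKM in Drd2 replicate 1, and 13 oligodendrocyte genes to 1789 FPKM in Drd2 replicate 2 and to 76.6 FPKM in PV replicate 8. Markers of ependymal cells (6 genes) summed to at most 10.4 FPKM and those of vascular cells (8 genes) to at most 6.16 FPKM. Pvalb ran from 349 to 563 FPKM in the PV libraries and was at 10.4, 22.5 and 99.5 FPKM across Drd2. The transcript Drd2 was at 42.7, 55.0 and 7.74 FPKM across the Drd2 libraries and at most 0.0132 FPKM in the PV libraries. Drd2 replicate 3 had both the highest Pvalb and the lowest Drd2 of its group. Genes encoded in mitochondrial DNA made up 9.62% to 31.3% of the FPKM total in PV and 3.74% to 5.20% in Drd2.

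The shared genes were far above the defining genes in summed level in all 6 libraries. Gene by gene the exception was S100b in Drd2 replicate 2, which lay below Slc1a2 and Slc1a3. The sum of all 10 genes was 743, 1491 and 1473 FPKM across Drd2 and 1661, 1348 and 1174 FPKM across PV. The defining genes supplied between 0.862% (Drd2 replicate 1) and 2.74% (Drd2 replicate 2) of that sum, and the shared genes the rest. By mean over the 6 libraries (± SD, n = 6) the order was Aldoc at 407 ± 152 FPKM, Apoe at 397 ± 189, Clu at 214 ± 99.2, Sparcl1 at 198 ± 122, S100b at 73.5 ± 57.7, Slc1a2 at 13.4 ± 6.72, Slc1a3 at 4.83 ± 3.81, Gfap at 4.11 ± 6.40, Aqp4 at 2.09 ± 1.32 and Gja1 at 1.24 ± 1.68 FPKM. Neighbours in this order differed by less than the larger of their SDs, except Sparcl1 and S100b, S100b and Slc1a2, and Slc1a2 and Slc1a3. Ranked among all genes of a library, Apoe lay between place 48 and place 274, whereas Gja1 lay between place 7288 and place 15873. The order of the abundant genes was not the same in every library: Clu led in Drd2 replicate 1, Apoe in Drd2 replicates 2 and 3 and PV replicate 6, and Aldoc in PV replicates 7 and 8.

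**Figure D1:**
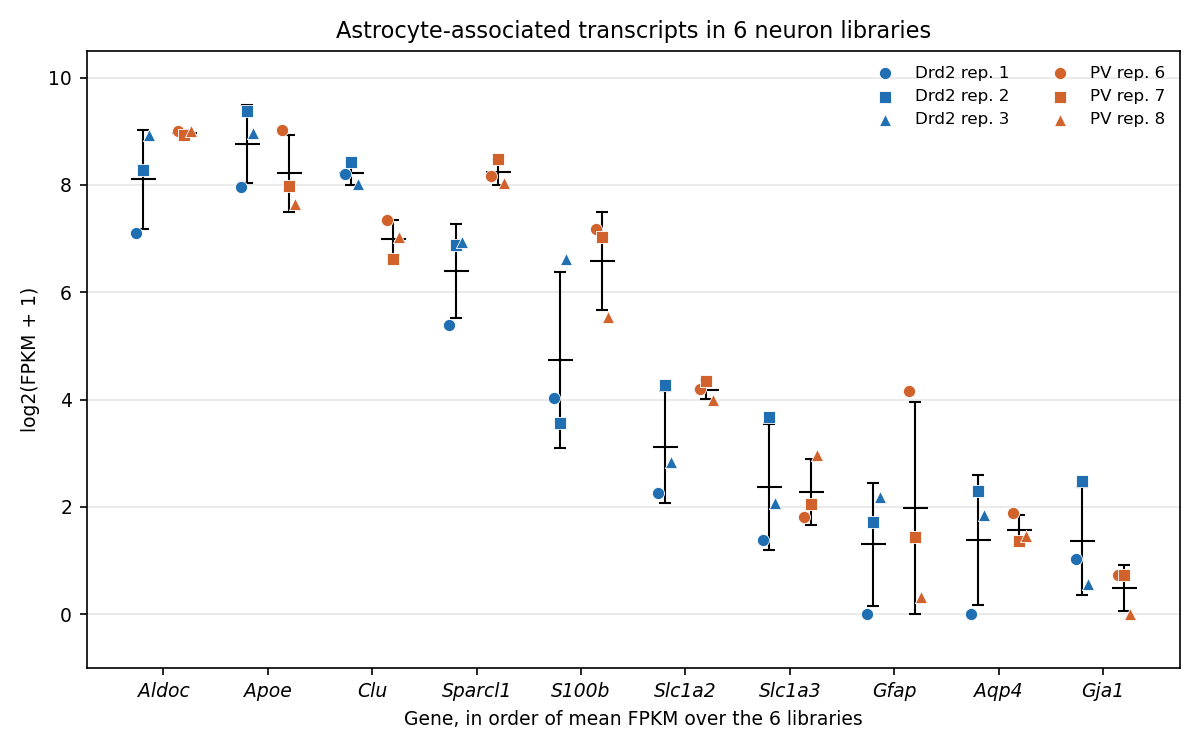
Level of each astrocyte gene (x axis, ordered by mean FPKM) as log2(FPKM + 1) (y axis); each symbol is 1 library, blue for Drd2 and orange for PV, and black bars give the mean and SD of 3 libraries. Aldoc, Apoe, Clu and Sparcl1 lie far above Gfap, Aqp4 and Gja1 in both groups, and the groups are apart for Clu and Sparcl1 only.

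Between the 2 neuron groups, Clu was higher in Drd2 and Sparcl1 higher in PV with no overlap of libraries, and neither passed the test across all genes. PV was compared with Drd2 by limma on log2(FPKM + 1) among the 11478 genes that reached 1 FPKM in 3 or more libraries, adjusted by Benjamini-Hochberg, at a threshold of 0.05. Gja1 missed that filter, so 9 of the 10 genes were tested. None of the 9 passed in limma, nor in limma voom on recovered reads; 3 had an unadjusted limma p under 0.05 (Sparcl1, Clu and S100b) and 5 did by voom. Over all tested genes in limma 0.261% passed, 0.0436% as higher in PV and 0.218% as higher in Drd2. An unadjusted p under 0.05 was found for 12.8% of them in limma and for 1446 of 11430 by voom. Groups that did not overlap were found for 1 astrocyte gene in each direction, against 5.83% of all tested genes as higher in PV, 13.1% as higher in Drd2 and 19% in either direction. Of the 9 genes, 6 had a log2 fold (PV minus Drd2) above 0 and 3 below, with a median of 0.67. All tested genes had a median of -0.28, with 4402 folds above 0 and 7076 below. The groups also differed, with no overlap, in the sum of 4 haemoglobin genes (743 to 3203 FPKM in PV, at most 11.5 FPKM in Drd2), of 6 markers of oligodendrocyte precursors (10.7 to 24.8 against 1.67 to 4.35 FPKM) and in the mitochondrial share given above. All 3 tested haemoglobin genes passed as higher in PV. Of the precursor markers only Lhfpl3 was tested (limma adjusted p = 0.462), single genes carried much of the sum in PV replicate 6 (C1ql1 at 14.2 FPKM) and PV replicate 8 (Neu4 at 16.7 FPKM), and Pdgfra, which defines these cells, did not exceed 1.13 FPKM. Of 13 tested oligodendrocyte genes 12 had folds below 0 (median -1.77), and of 15 tested microglial genes 13 had folds above 0 (median 1.43); none of either list passed, and the summed levels overlapped between the groups. The part of these in the folds of astrocyte genes was not tested. The libraries were bulk samples, so that fewer cells of a type and less RNA per cell cannot be told apart.

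**Figure D2:**
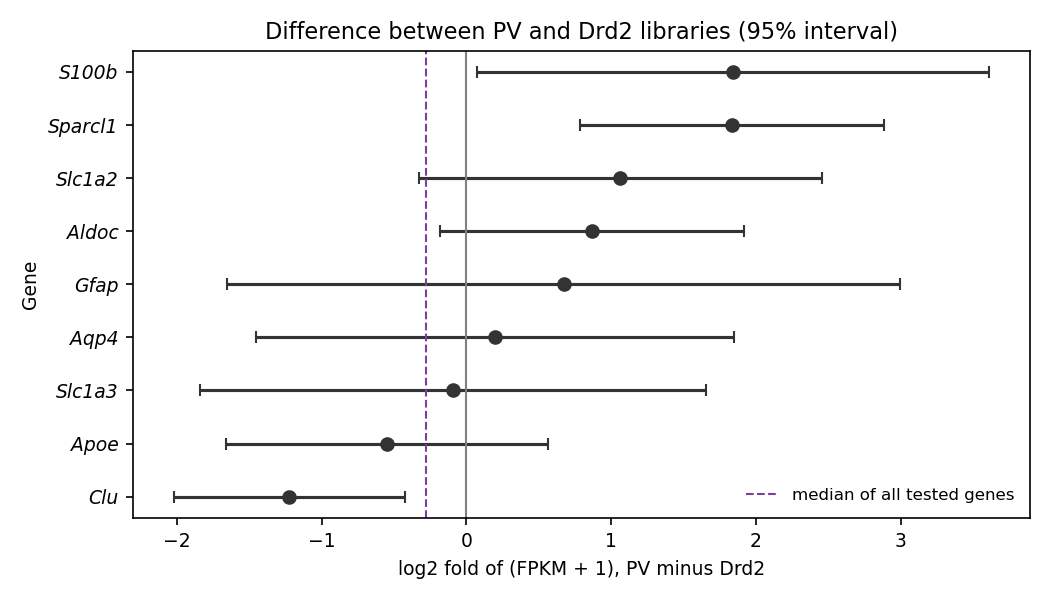
Log2 fold of FPKM + 1, PV minus Drd2 (x axis), for the 9 tested astrocyte genes (y axis), with the 95% interval from limma; the dashed line is the median of all tested genes, at -0.28. The intervals of Sparcl1, S100b and Clu leave out 0 before adjustment, and the other 6 include it.

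Sparcl1 encodes an extracellular matrix protein, hevin, that astrocytes release at forming synapses (ENSMUSG00000029309, mm10 chromosome 5, 104079111 to 104113733). It was at 287, 358 and 263 FPKM across PV and at 40.9, 116 and 122 FPKM across Drd2. Every PV library was thus above every Drd2 library, and the gap between the nearest libraries of the groups was wider than either group's SD. The group means were 302 ± 49.3 and 92.9 ± 45.2 FPKM (SD, n = 3 each), a ratio of 3.25. The log2 fold was 1.83 ± 0.47 (SE; limma adjusted p = 0.149). It stayed above 0 in all 14 alternative settings, from 1.33 to 2.10, with adjusted p from 0.1004 to 0.649.

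Clu encodes clusterin, a secreted chaperone and lipoprotein component also called apolipoprotein J (ENSMUSG00000022037, chromosome 14, 65968483 to 65981547). It was at 161, 97.8 and 129 FPKM across PV and at 295, 345 and 257 FPKM across Drd2. The groups did not overlap, in the opposite direction to Sparcl1. Means were 129 ± 31.5 FPKM for PV and 299 ± 44.4 FPKM for Drd2 (SD, n = 3 each), 2.31 times higher in Drd2. On the log2 scale Clu had a fold of -1.22 ± 0.36 (SE; limma adjusted p = 0.192), between -1.39 and -1.04 with each library left out (adjusted p from 0.106 to 0.613 over all 14 alternative settings). The ratio of Sparcl1 to Clu within a library, a pair chosen after their values were seen and apart between the groups by that choice, was 1.78, 3.66 and 2.04 across PV and 0.138, 0.337 and 0.474 across Drd2.

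Apoe, the main lipid-carrying apolipoprotein of the brain (ENSMUSG00000002985, chromosome 7, 19696109 to 19699188), overlapped between the groups. It was at 520, 252 and 200 FPKM across PV and at 248, 666 and 496 FPKM across Drd2. Both groups held libraries near 250 FPKM and near 500 FPKM. The log2 fold was -0.55 (95% interval -1.66 to 0.56; limma adjusted p = 0.687). The microglial sum was 144 FPKM in Drd2 replicate 2, where Apoe was highest, and 4160 FPKM in Drd2 replicate 3. In Drd2 replicate 1, 9 of the 16 microglial genes and the astrocyte genes Gfap and Aqp4 were listed at 0. The other defining genes there, Slc1a2, Slc1a3 and Gja1, were at 3.76, 1.60 and 1.04 FPKM, and the oligodendrocyte sum was 577 FPKM. Apoe was at 248 FPKM and Clu at 295 FPKM in that library. The recovered reads behind these values were 17912 for Apoe and 34264 for Clu. The part of any glial cell type in the level of Apoe was not tested.

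S100b, a calcium-binding protein of astrocytes and the oligodendrocyte lineage (ENSMUSG00000033208, chromosome 10, 76253853 to 76261159), varied 13.2-fold between libraries. It was at 144, 129 and 45.4 FPKM across PV and at 15.3, 10.9 and 96.7 FPKM across Drd2. Drd2 replicate 3 lay within the PV range and the other Drd2 libraries below it. The log2 fold was 1.84 ± 0.79 (SE; limma adjusted p = 0.369), and ran from 1.26 without Drd2 replicate 2 to 2.78 without Drd2 replicate 3. The libraries with low S100b were those with the lowest microglial sums (24.5 and 144 FPKM, against 542 to 4160 in the other 4) and the highest oligodendrocyte sums (577 and 1789 FPKM, against 76.6 to 364). The part of either cell type in the level of S100b was not tested.

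**Figure D3:**
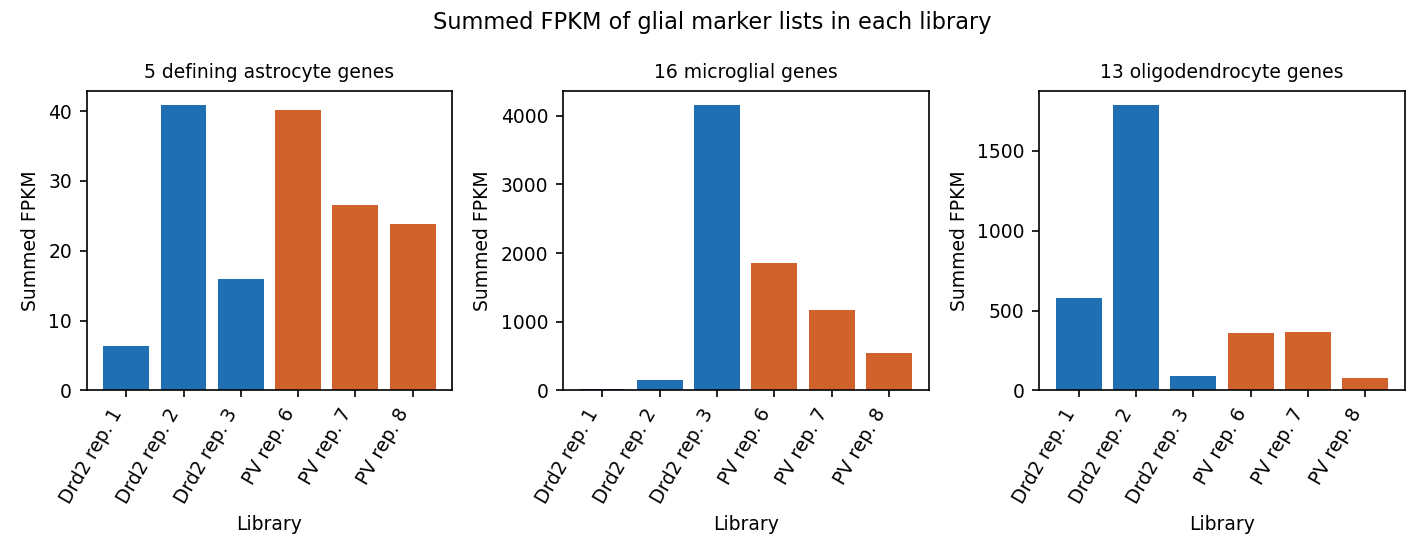
Summed FPKM (y axis, starting at 0, on a scale of its own in each panel) of the 5 defining astrocyte genes, 16 microglial genes and 13 oligodendrocyte genes in each library (x axis; blue Drd2, orange PV). The astrocyte sum peaks in Drd2 replicate 2 and PV replicate 6, the microglial sum in Drd2 replicate 3 and the oligodendrocyte sum in Drd2 replicate 2.

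The stretch upstream of S100b and Apoe is shown because S100b had the widest fold range of the 7 genes found in every library and Apoe the second highest mean of the 10, and neither window touches an annotated exon. Each holds the 250 bases before the RefSeq start in build GRCm38.p6 (mm10), read 5′ to 3′ along the gene's strand: chr10:76253586-76253835 on the plus strand for S100b and chr7:19699189-19699438 on the minus strand for the first Apoe start. Capitals mark the motifs searched on both strands, which do not overlap one another here. They are TGCCAA, the half-site of the nuclear factor I family, and ACAAAG and ACAATG, the core that Sox proteins bind, both families known from glial development.
S100b: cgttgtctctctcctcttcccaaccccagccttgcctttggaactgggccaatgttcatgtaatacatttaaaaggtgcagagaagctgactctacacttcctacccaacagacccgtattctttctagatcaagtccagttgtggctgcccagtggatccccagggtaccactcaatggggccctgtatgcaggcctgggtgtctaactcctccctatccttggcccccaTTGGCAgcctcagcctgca
Apoe: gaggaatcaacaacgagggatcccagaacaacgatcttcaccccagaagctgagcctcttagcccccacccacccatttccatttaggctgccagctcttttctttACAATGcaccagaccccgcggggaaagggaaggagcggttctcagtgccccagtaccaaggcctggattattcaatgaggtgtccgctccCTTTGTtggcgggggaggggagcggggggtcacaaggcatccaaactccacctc
The S100b window held TGCCAA once, read as TTGGCA from 19 bases before the start. In the Apoe window ACAATG began 144 bases before the start and ACAAAG, read as CTTTGT, began 54 bases before it. TGCCAA occurred in 12.3% of 32851 such windows of mouse genes, ACAAAG in 16.5% and ACAATG in 10.7%. RefSeq windows were matched for 7 of the 10 genes, with 10 windows in all, of which 3, 1 and 1 held these motifs. Such matches describe the letters only.

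Aldoc, the aldolase isozyme of astrocytes and some neurons (ENSMUSG00000017390, chromosome 11, 78322968 to 78327781), was level across the PV libraries and uneven across the Drd2 libraries. It was at 510, 485 and 512 FPKM across PV and at 137, 311 and 486 FPKM across Drd2. The highest Drd2 library just reached the PV range. Aldoc had a log2 fold of 0.87 (95% interval -0.18 to 1.92; limma adjusted p = 0.481), and ran from 0.37 without Drd2 replicate 1 to 1.28 without Drd2 replicate 3. Aldoa, the broadly expressed aldolase of glycolysis, was above Aldoc in every library, by 1.21-fold in PV replicate 7 to 10.3-fold in Drd2 replicate 1.

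The glutamate transporters Slc1a2 (GLT-1) and Slc1a3 (GLAST), which clear synaptic glutamate, had the highest means of the defining genes over the 6 libraries. Gfap was above Slc1a3 in PV replicate 6 and Drd2 replicate 3, and Aqp4 was above it in PV replicate 6. Slc1a2 was at 17.4, 19.4 and 15.0 FPKM across PV and at 3.76, 18.4 and 6.13 FPKM across Drd2. Drd2 replicate 2 lay within the PV range and the other Drd2 libraries below it. The log2 fold was 1.06 (95% interval -0.33 to 2.45; limma adjusted p = 0.512). Slc1a3 was at 2.52, 3.14 and 6.84 FPKM in PV and at 1.60, 11.7 and 3.20 FPKM in Drd2, in the same order of replicates. All PV libraries lay within the Drd2 range, and the log2 fold of -0.09 (95% interval -1.84 to 1.65; limma adjusted p = 0.972) changed sign with the scaling. Slc1a2 was above Slc1a3 in all 6 libraries, by 1.57-fold to 6.91-fold. Exons of Slc1a2 overlap those of the antisense gene Gm13872 over 1.44% of their length, and the sources used here do not say whether counting used strand.

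Gfap, the intermediate filament of astrocytes (ENSMUSG00000020932, chromosome 11, 102887336 to 102900912), stood out in a single library. It was at 16.9, 1.72 and 0.242 FPKM across PV and at 2.31 and 3.52 FPKM in Drd2 libraries 2 and 3, and was listed at 0 in Drd2 replicate 1. In recovered reads this was 2124, 201 and 29 in the PV libraries and 292 and 354 in the Drd2 libraries above 0. Most of the Gfap signal of the study thus came from PV replicate 6. The log2 fold was 0.67 (95% interval -1.65 to 3.00; limma adjusted p = 0.826) and turned to -0.42 without that library.

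Aqp4, the water channel of astrocyte endfeet, lay between 1.58 and 3.90 FPKM in the 5 libraries where it was found. It was at 2.71, 1.58 and 1.76 FPKM across PV and at 3.90 and 2.58 FPKM in Drd2 libraries 2 and 3, and was listed at 0 in Drd2 replicate 1. The log2 fold was 0.20 (95% interval -1.45 to 1.85; limma adjusted p = 0.932) and -0.49 without Drd2 replicate 1. Gja1, the gap junction protein connexin 43, was at 0.667 and 0.669 FPKM in PV replicates 6 and 7, listed at 0 in PV replicate 8, and at 1.04, 4.60 and 0.483 FPKM across Drd2. Drd2 replicate 2 was the only library in which Gja1 was well above 1 FPKM. With no filter on low values its log2 fold was -0.87 ± 0.76 (SE; limma adjusted p = 0.649).

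The defining genes summed to 40.2, 26.5 and 23.8 FPKM across PV and to 6.40, 40.9 and 15.9 FPKM across Drd2; both the lowest and the highest sum were in Drd2 libraries. Of the 9 tested astrocyte genes, 6 had their lowest value in Drd2 replicate 1, where 14.5% of all tested genes had theirs, and 4 had their highest value in Drd2 replicate 2, where 15.0% of all tested genes did. The 6 lowest in Drd2 replicate 1 were Aldoc, Sparcl1, Slc1a2, Slc1a3, Gfap and Aqp4, and the 4 highest in Drd2 replicate 2 were Apoe, Clu, Slc1a3 and Aqp4. PV replicate 7, which held the lowest value of 37.3% of all tested genes, held the lowest value of 1 of the 9, Clu.

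Set beside chosen relatives, several of the genes made up a larger share of the sum in PV. The sums left out other measured relatives, such as Slc1a4 for Slc1a2 and S100a10 for S100b. These shares were chosen after the values were seen and are a description. The rate of non-overlap among other such shares was not measured, and the tests that follow do not account for the choice. Exact 2-sided permutation tests, which cannot go below p = 0.1 with 3 libraries a group, gave 0.1 for Aldoc, Slc1a2 and Sparcl1 and 0.4 for S100b (0.133 and 0.4 adjusted over the 4). As ratios within a library they do not depend on scaling. Aldoc was 31.9%, 45.3% and 28.8% of its sum with Aldoa across PV and 8.82%, 20.9% and 22.2% across Drd2. Slc1a2 was 70.7%, 86.1% and 56.5% of the glutamate transporters Slc1a1, Slc1a2, Slc1a3 and Slc1a6 in PV and 39.5%, 42.4% and 46.7% in Drd2. Slc1a1, the neuronal transporter EAAC1, was at most 6.06 FPKM in any library. In PV replicate 7, where the share was highest, Slc1a1 was at 0.0044 FPKM (1 recovered read) and Slc1a6 was listed at 0. That library had 8610 genes at 1 FPKM or more, against 10293 to 12398 in the others. Sparcl1 was 53.3%, 90.8% and 89.4% of the sum with its relative Sparc in PV and 51.2%, 52.6% and 31.7% in Drd2, so PV replicate 6 lay just above the Drd2 range. The share of S100b in its sum with S100a1 overlapped between the groups, at 32.4% ± 12.8 for PV and 20.8% ± 16.5 for Drd2 (SD, n = 3 each). The relatives S100a1 and Sparc averaged 175 and 121 FPKM over the 6 libraries.

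**Figure D4:**
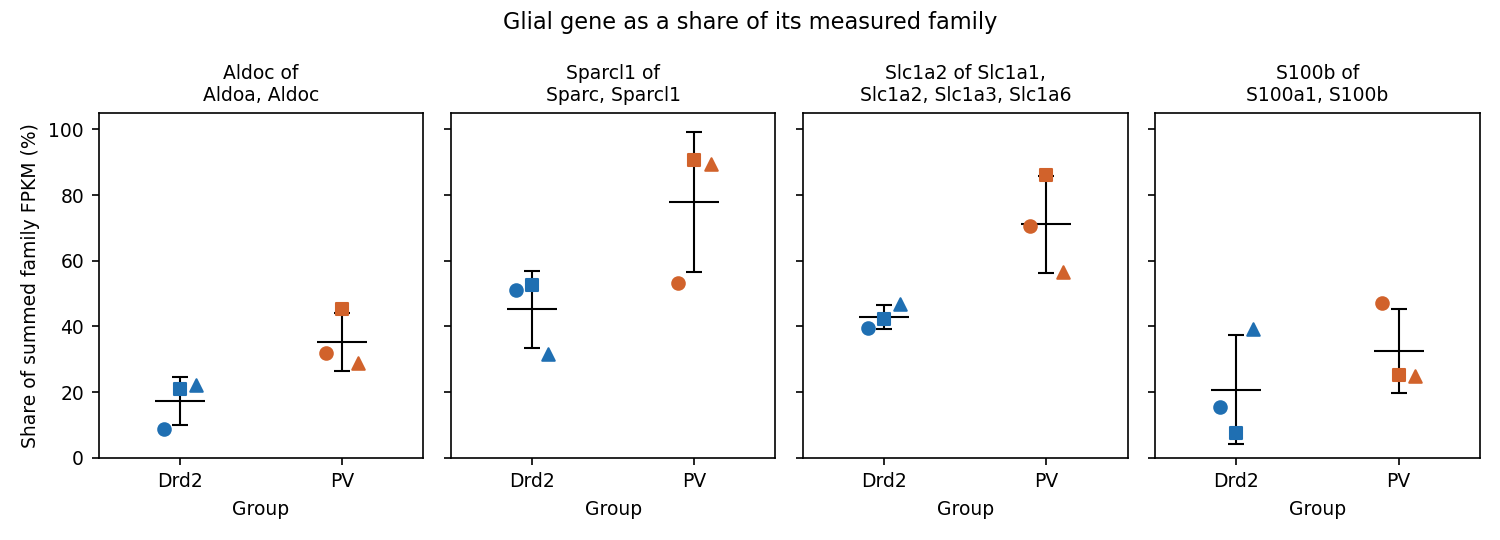
Share of summed family FPKM (y axis, percent) taken by Aldoc, Sparcl1, Slc1a2 and S100b in each library, by group (x axis). Family here means only the relatives named above each panel. Symbols are libraries (blue Drd2, orange PV) and black bars the mean and SD of 3. The shares of Aldoc, Sparcl1 and Slc1a2 do not overlap between the groups, while those of S100b do. They were chosen after the values were seen. Groups did not overlap for 19% of all tested genes taken singly, and no such rate was measured for shares.

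A wider list of 41 genes with roles in astrocytes split nearly evenly by direction between the groups. In limma 0 of the 36 tested companions passed in either direction (2 at an unadjusted p under 0.05), and 0 did by voom (5 at an unadjusted p under 0.05). Over all tested genes that unadjusted cut was met by 12.8% in limma and by 1446 of 11430 by voom. Folds were above 0 for 17 and below 0 for 19, with a median of -0.05. All tested genes had a median of -0.28, with 4402 folds above 0 and 7076 below. Groups did not overlap for 4 of the 36 tested companions, against 19% of all tested genes. Glul, the glutamine synthetase that recycles glutamate, was at 129 ± 13.3 FPKM for PV and 77.4 ± 27.6 for Drd2, and the lipase Pla2g7 at 37.4 ± 20.9 against 8.57 ± 3.03 (SD, n = 3 each). Atp1b2, a sodium pump subunit of glia, was at 18.5 ± 9.15 FPKM for PV and 84.0 ± 40.1 for Drd2, and the proteoglycan Cspg5 at 8.84 ± 6.09 against 17.6 ± 3.45. Adjusted p in limma was 0.441 for Glul, 0.184 for Pla2g7, 0.127 for Atp1b2 and 0.498 for Cspg5.

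By role, 4 of 5 tested junction and endfoot companions had folds below 0 and 1 above, with a median of -0.88. Among all tested genes 7076 folds were below 0 and 4402 above. Gjb6, the astrocyte connexin 30, was at 3.64 to 12.5 FPKM in PV and 6.15 to 28.2 FPKM in Drd2. Of 10 tested metabolic companions 7 had folds above 0 (median 0.79), of 7 transporters and pumps 3 (median -0.24), of 7 signalling and transcription genes 2 (median -1.19) and of 7 secreted proteins 4 (median 0.14). No role group had a gene past the threshold, and none was tested as a group.

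Several companions were far above the defining genes. Cst3, the protease inhibitor cystatin C that microglia also make, was at 3250, 3166 and 1573 FPKM across PV and at 505, 1090 and 2625 FPKM across Drd2. It was lowest in Drd2 replicates 1 and 2, where the microglial sums were lowest, but was higher in PV replicates 6 and 7 (microglial sums 1850 and 1177 FPKM) than in Drd2 replicate 3, where that sum was highest. The part of microglia in its level was not tested. The metallothioneins Mt3 and Mt1, which bind zinc and copper, averaged 457 and 430 FPKM over the 6 libraries, Ndrg2 190 FPKM and the antioxidant enzyme Prdx6 40.7 FPKM. Ntsr2, a neurotensin receptor of astrocytes, was at 56.7 and 12.4 FPKM in PV replicates 6 and 8, listed at 0 in PV replicate 7, and at 25.2, 98.4 and 42.1 FPKM across Drd2. Among the 36 companions, 13 had their highest value in Drd2 replicate 2, against 15.0% of all tested genes. The lowest value was in PV replicate 8 for 14 (15.3% of all tested genes) and in Drd2 replicate 1 for 10 (14.5%). Ties at 0 were counted for the earlier library in the order given above. Ezr, at 0 in Drd2 replicate 1 and PV replicate 6, thus counted for Drd2 replicate 1. Slc7a10, at 0 in PV replicates 7 and 8, counted for PV replicate 7. The astrocyte dehydrogenase Aldh1l1 and the transcription factor Sox9 were among the 5 companions below the filter. Aldh1l1 was at 8.54, 5.08 and 0.992 FPKM across PV and at 0.295, 0.524 and 0.975 FPKM across Drd2, so its groups did not overlap, by a narrow gap. Sox9 was at most 4.01 FPKM, in PV replicate 6.

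**Figure D5:**
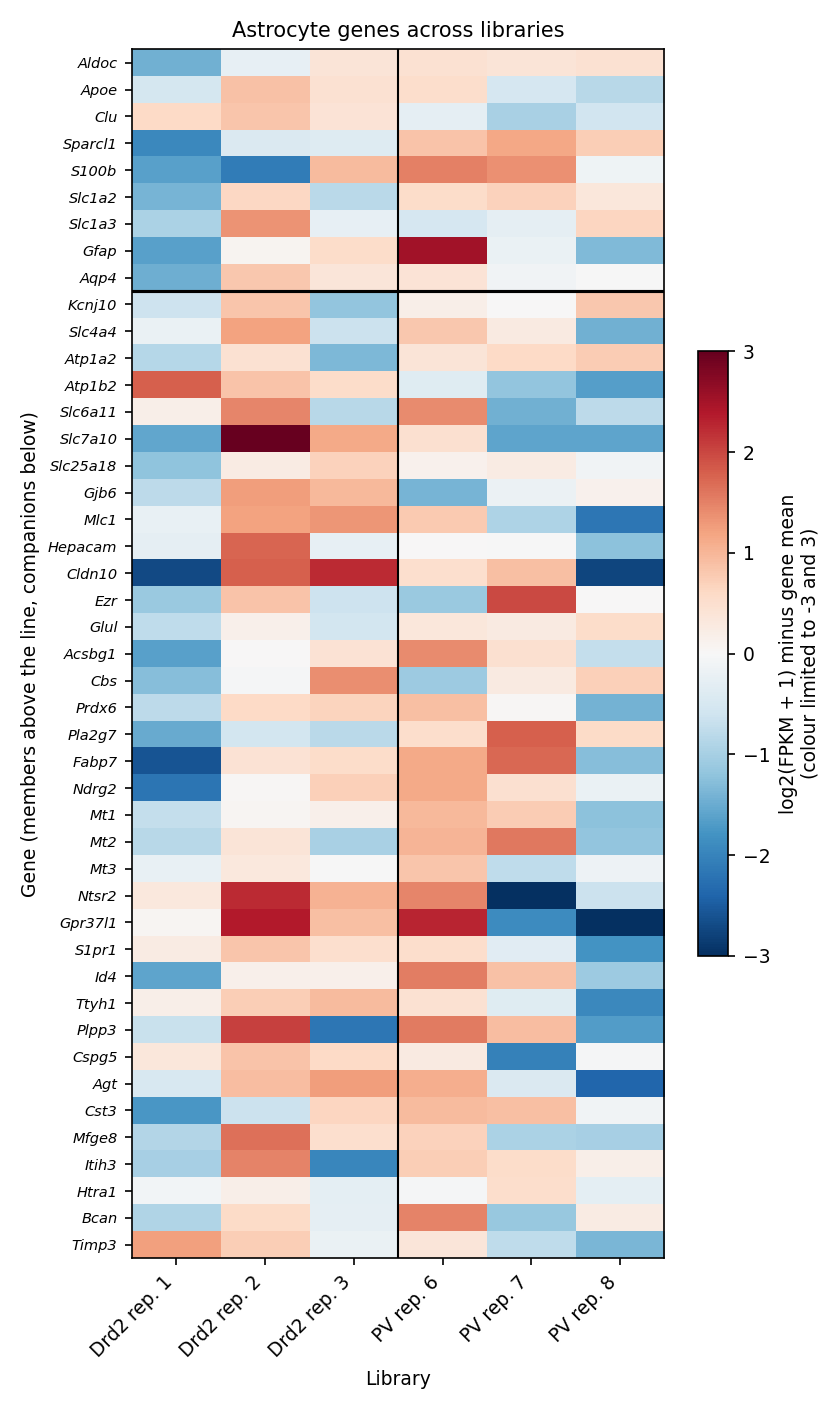
Level of 9 astrocyte genes (above the line) and 36 companions (below) in each library (x axis), as log2(FPKM + 1) minus the gene's mean over 6 libraries; red is above the mean and blue below, with colours limited to -3 and 3. Rows are often red in Drd2 replicate 2, which held the highest value of 13 companions (15.0% of all tested genes). They are often blue in PV replicate 8, which held the lowest of 14 (15.3% of all tested genes). The vertical line parts the 3 Drd2 libraries (left) from the 3 PV libraries (right).

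Genes that rise in reactive astrocytes were mostly below 1 FPKM. Of 10 such genes 4 reached 1 FPKM in any library and 2 were tested, with folds in opposite directions, and neither passed in limma. Groups did not overlap for 1 of these 2, Cd44, and for 19% of all tested genes. Cd44, a hyaluronan receptor, was at 18.8 ± 5.31 FPKM for PV and 7.14 ± 2.23 for Drd2 with no overlap (SD, n = 3 each; limma adjusted p = 0.343). The protease inhibitor gene Serpina3n was at 1.43, 8.66 and 1.88 FPKM across PV and at 23.2, 2.502 and 8.62 FPKM across Drd2, with a log2 fold of -1.20 (limma adjusted p = 0.603) and overlapping groups. Lcn2 was listed at 0 in all 6 libraries, and the filament gene Vim did not exceed 2.10 FPKM. The chemokine Cxcl10 was at 502 FPKM in Drd2 replicate 3 and listed at 0 in the other 5 libraries; that library also had the highest microglial sum, whose part in the value was not tested.

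Partners of Apoe and relatives of the other genes were measured as well. Of 6 tested lipoprotein receptors and lipid transporters none passed in limma and 0 had an unadjusted p under 0.05 (4 folds above 0, 2 below). Sorl1, a sorting receptor for Apoe-bearing particles, was at 15.1 ± 4.97 FPKM for PV and 6.80 ± 2.16 for Drd2 with no overlap (SD, n = 3 each; limma adjusted p = 0.471). Of 11 tested relatives none passed and 2 had an unadjusted p under 0.05 in limma, against 12.8% of all tested genes. Groups did not overlap for 1 of the 6 receptors and transporters, Sorl1, and 1 of the 11 relatives, Slc1a4. Over all tested genes 19% did not overlap. Slc1a4, a neutral amino acid transporter of the same family as the glutamate transporters, was at 1.48 ± 1.38 FPKM for PV and 9.27 ± 2.73 for Drd2 with no overlap (SD, n = 3 each; limma adjusted p = 0.230). S100a10, an annexin-binding protein of the S100 family, was at 14.1 and 43.5 FPKM in PV replicates 6 and 7, listed at 0 in PV replicate 8, and at 127, 85.5 and 21.7 FPKM across Drd2. Its groups overlapped (limma adjusted p = 0.375). Apod, an apolipoprotein of oligodendrocytes and other glia, was at 74.2, 149 and 5.16 FPKM across Drd2 and at most 17.7 FPKM in PV. It was highest in the libraries with the highest oligodendrocyte sums, and the part of those cells in its level was not tested.

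The genes whose library-to-library pattern was most like that of an astrocyte gene were sought among 6217 tested genes with a mean of at least 5 FPKM, by Pearson's r of log2(FPKM + 1) over the 6 libraries. This is a description of 6 points that share group and depth. Closest to Clu were Mast1, Fscn1, Slc1a4, Car8 and Tspan7, with r from 0.988 to 0.991, and 331 genes had r above 0.9. Closest to Sparcl1 were Kin, Ppargc1a, Cyfip2, Ube2q2 and Snap25 (r from 0.972 to 0.994), with 60 genes above 0.9. Snap25, a synaptic fusion protein of neurons, was at 751, 1109 and 766 FPKM across PV and at 202, 331 and 503 FPKM across Drd2. Closest to Apoe were Ocrl, Sipa1l1, Lmbr1, the microRNA gene listed as Mir153 and Camk2g (r from 0.958 to 0.976). Closest to the mean of the 5 defining genes were Dbx2, Ntrk2, Glyr1, Actr8 and Mcrip2 (r from 0.922 to 0.973). None of the companions was among these names, although 28 of the 29 that entered the search had r above 0 with that mean, where 46.1% of all genes searched did. Their median r was 0.55, against -0.03 for all genes searched.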

How the data were processed

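The 6 libraries were grouped by title and genotype label. The authors deposited FPKM; STAR was used, with no version given, and builds hg38, GRCh38 and mm10 are named, per the submitters' processing notes. The sources used here do not name the quantifier, the annotation or the use of strand. Positions and exon lengths are from GENCODE M21 (mm10). FPKM times exon length fell on whole reads: of values up to 20 reads, 97.9% to 98.8% lay within 0.01 of a whole number. Reads describe counting error only, since PCR copies are not independent molecules, and an exact 0 may be a failed estimate.

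PV and Drd2 were compared with limma 3.58.1 (R 4.3.3; intensity trend, 2-sided, Benjamini-Hochberg over all 11478 tested genes) on log2(FPKM + 1), which understates folds of weak genes. The script was tested on simulated data. Members and lists were chosen with earlier results of these data known. Named by rule were all members, the 14 companions, relatives and other listed genes with the highest mean, family relatives and the 5 genes most alike per pattern; Glul, Pla2g7, Atp1b2, Cspg5 and others with non-overlapping groups, and Gjb6, Aldh1l1, Sox9, Lcn2, Vim, Serpina3n, Lhfpl3, C1ql1, Neu4 and Pdgfra, were added after their values were seen. Alternatives were pseudocounts of 0.1 and 5 FPKM, no filter, 3 scalings, no trend, leaving out each library and, added after the data were seen, voom on recovered reads. One name, Aldoa, occurred on 2 rows and the one with reads was used. One relative is not reported here.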

Additional observations from a re-analysis of the deposited data

How the results depend on the processing

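None of the astrocyte genes or companions passed in any of the 14 alternative settings. Folds of Aldoc, Apoe, Clu, S100b, Slc1a2 and Sparcl1 kept their sign in all 14. Slc1a3 turned to 0.033 when FPKM was rescaled over genes outside mitochondrial DNA, 0.060 with scaling by median of ratios and 0.13 after quantile normalization, and ran from -0.59 to 0.56 with each library left out. In the same way Gfap ran from -0.42 (without PV replicate 6) to 1.502 and Aqp4 from -0.49 (without Drd2 replicate 1) to 0.65; reported at 0.67 and 0.20, these folds were 1.20 and 1.01 with a pseudocount of 0.1 FPKM and 2.82 and 2.92 by voom. The cause was not tested.

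Over all genes, limma called 30 (5 higher in PV, 25 in Drd2). It called 4 with a pseudocount of 0.1 FPKM, 68 with 5 FPKM, 0 with no filter (1509 at an unadjusted p under 0.05), 46 without the trend, 11 rescaled outside mitochondrial DNA (3 in PV, 8 in Drd2) and 62 with quantile normalization (18 in PV, 44 in Drd2), and 1 to 56 with each library left out; voom called 22. The median fold of all genes, -0.28, became -0.12 when scaled by median of ratios and 0.01 with quantile normalization. Rescaled outside mitochondrial DNA it was -0.25. That rescaling set the total of those genes to 1e6, above the deposited FPKM totals of 351070 to 447842. It thus raised all values before 1 was added, and its effect cannot be told apart from that of a lower pseudocount. No paired analysis was possible because the groups share no replicate numbers. With 3 libraries a group, the intervals of single genes span several-fold changes.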
